A study of Rattus norvegicus with 44 samples.

Results

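Macrophages and monocytes of the kidney were followed through 9 marker genes, Cd163, Cd68, Csf1r, Adgre1, Mrc1, Aif1, Msr1, Cd14 and Lyz2, chosen by symbol from the 32883 entries (28906 distinct symbols) of the deposited expression table. Each of the 9 was found on 1 entry. Macrophages are phagocytes that live in every tissue, renew themselves there or arise from blood monocytes, and depend on signals through the CSF1 receptor. In the kidney they lie between the tubules and around the vessels, take up debris and immune complexes, and increase in number in chronic and diabetic kidney disease. The markers cover different parts of that biology: receptors for growth factor, for bacterial lipopolysaccharide and for material to be cleared, and proteins of the lysosome and the cytoskeleton.

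RNA of a frozen piece of right kidney came from each of 44 male obese ZSF1 rats. This F1 hybrid strain with defective leptin receptors becomes obese and diabetic and develops progressive kidney disease. Treatment began at 22 weeks of age and lasted 6 months. The Enalapril group, 9 rats, took this angiotensin-converting enzyme inhibitor at a daily dose of 3 mg/kg. In the Compound 1 group, 12 rats took a stimulator of soluble guanylate cyclase, first at 1 mg/kg and then at 3 mg/kg daily. Another 12 rats took both drugs (the combination), Enalapril at its full dose and Compound 1 at 1 mg/kg daily throughout. Vehicle alone was given to 11 rats (Vehicle). All 4 groups carried telemetry implants, all were obese, and no lean or untreated rats were analysed here, so all comparisons are among diseased kidneys. The dose of Compound 1 differed between the groups that received it.

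Levels are in FPKM, that is, sequenced fragments corrected for transcript length and library size, and can be set side by side for different genes. How many reads stand behind them is unknown. Relative to the median library, depth lay between 0.696 and 1.36 over the 44 animals, with medians of 1.12 for Enalapril, 1.01 for Compound 1 and 1.02 for the combination, against 0.886 for Vehicle. A gene entered the test with FPKM above 1 in at least 9 animals, which left 13482 genes. All 9 markers passed, but Cd163 did so mainly through the rats given Compound 1: its FPKM was above 1 in 8 of 12 rats with Compound 1, in 1 of 9 with Enalapril, in 1 of 12 with the combination and in 2 of 11 in Vehicle. Msr1 was also near the filter, above 1 in 8 of 12, 5 of 9, 2 of 12 and 10 of 11 rats of these groups. A differentially expressed gene (DEG) had a limma adjusted p under 0.05 over all tested genes and a fold change of log2(FPKM + 0.1) above 1.5 or under 0.66.

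The markers spanned nearly the whole range of expression. Lyz2, the bacteria-degrading lysozyme of macrophages, monocytes and neutrophils, was the most abundant, at a mean of 875.1 FPKM over the 44 animals (percentile 99.5 of the tested genes). Aif1, an actin-bundling calcium-binding protein also known as IBA1, averaged 55.0 FPKM. Csf1r, the receptor for the growth factors CSF1 and IL-34, averaged 43.5 FPKM, and Cd68, a glycoprotein of the lysosomal membrane, 35.7 FPKM. Cd14, the co-receptor that presents lipopolysaccharide to TLR4, averaged 12.1 FPKM, Adgre1, the adhesion G protein-coupled receptor known as F4/80, 7.03 FPKM, and Mrc1, the mannose receptor, 4.48 FPKM. Msr1, the class A scavenger receptor, and Cd163, the scavenger receptor for haptoglobin-hemoglobin complexes, were lowest, at 1.05 and 0.913 FPKM (percentiles 4.70 and 2.80). All 9 were above 0 in each of the 44 animals. Of 50 other macrophage genes with an entry, 49 also passed the filter on low values.

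This order held within nearly every animal. Lyz2 was above Aif1, Csf1r above Cd68, Cd68 above Cd14, Cd14 above Adgre1 and Mrc1 above Msr1 in all 44 animals, Aif1 was above Csf1r in 42, and Adgre1 was above Mrc1 in 43. The lowest pair changed places between groups. Msr1 was above Cd163 in 8 of 9 rats with Enalapril, in 4 of 12 with Compound 1, in 7 of 12 with the combination and in 10 of 11 in Vehicle. Variation between animals of 1 group was lowest for Csf1r and Aif1. The coefficient of variation of Csf1r was 10.6% in the Enalapril group, 18.8% in the Compound 1 group and 17.4% in the combination group, against 14.1% in Vehicle, and that of Aif1 was 10.9%, 18.7% and 13.3%, against 18.5% in Vehicle. Cd163 varied most with Enalapril (35.3%), with Compound 1 (42.3%) and in Vehicle (53.3%), whereas with the combination Msr1 did (27.6%).

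**Figure D1:**
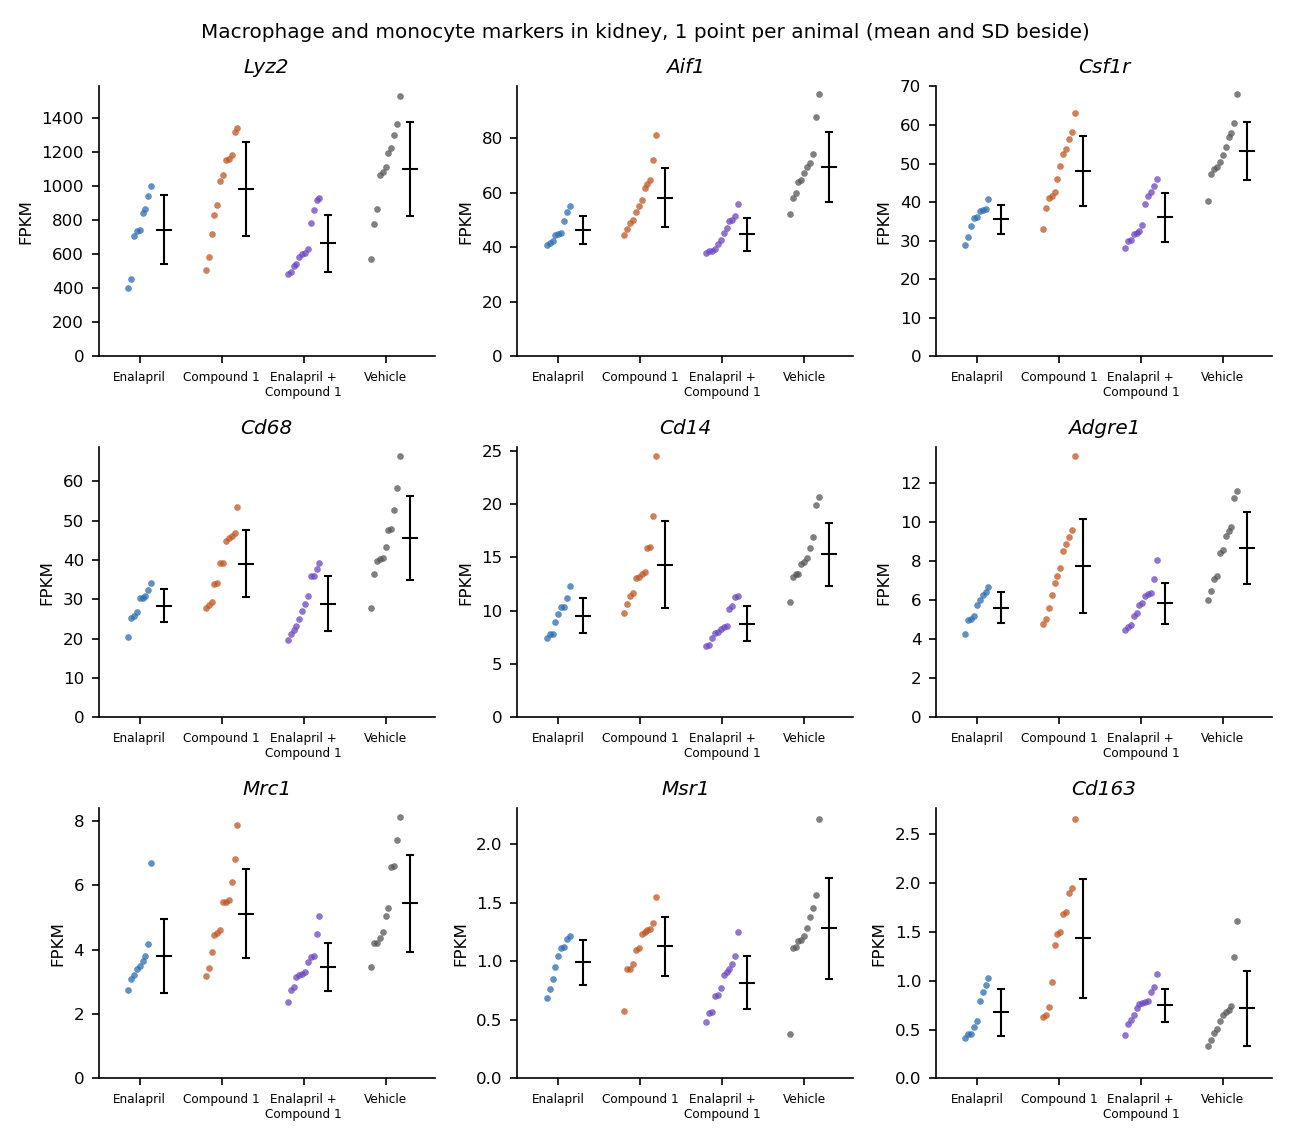
FPKM of the 9 markers in kidney, in order of their level, with 1 point for each of 44 animals (sorted by value within a group) and the group mean with its SD beside the points. For 7 markers the rats given Enalapril or the combination lie mostly below Vehicle, whereas Cd163 is highest with Compound 1, at 1.44 ± 0.608 FPKM against 0.719 ± 0.384 FPKM in Vehicle.

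Promoters are shown for 4 of the markers on which the results turn: Csf1r and Cd68, the most closely correlated pair, Cd14, the marker with the largest fall, and Cd163, the marker that differed in direction. The windows run from 250 bases before to 50 bases after the annotated start, on the strand of the gene, from RefSeq on build GRCr8, whereas the expression values were computed on rn6. They lie at chr18:56834129-56834428 (+ strand) for Csf1r, chr10:54882392-54882691 (- strand) for Cd68, chr18:28611109-28611408 (- strand) for Cd14 and chr4:158770524-158770823 (+ strand) for Cd163. Capitals mark the PU box GAGGAA, read on either strand (TTCCTC on the other), the core letters bound by PU.1, the myeloid transcription factor encoded by Spi1.
Csf1r: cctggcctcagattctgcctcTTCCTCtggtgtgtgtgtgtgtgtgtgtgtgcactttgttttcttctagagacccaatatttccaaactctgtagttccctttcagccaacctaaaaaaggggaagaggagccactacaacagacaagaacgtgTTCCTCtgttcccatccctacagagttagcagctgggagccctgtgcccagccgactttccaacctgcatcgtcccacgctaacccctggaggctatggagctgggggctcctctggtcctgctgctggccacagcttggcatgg
Cd68: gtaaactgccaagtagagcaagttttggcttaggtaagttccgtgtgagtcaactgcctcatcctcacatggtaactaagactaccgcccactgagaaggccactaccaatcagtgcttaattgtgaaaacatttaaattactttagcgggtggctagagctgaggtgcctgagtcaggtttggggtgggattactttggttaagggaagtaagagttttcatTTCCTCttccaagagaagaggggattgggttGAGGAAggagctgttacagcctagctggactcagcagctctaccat
Cd14: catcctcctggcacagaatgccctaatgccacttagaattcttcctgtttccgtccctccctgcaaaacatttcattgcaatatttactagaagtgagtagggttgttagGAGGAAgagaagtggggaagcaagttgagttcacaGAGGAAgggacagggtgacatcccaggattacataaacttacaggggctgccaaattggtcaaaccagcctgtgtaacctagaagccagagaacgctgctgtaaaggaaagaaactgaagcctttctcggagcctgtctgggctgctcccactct
Cd163: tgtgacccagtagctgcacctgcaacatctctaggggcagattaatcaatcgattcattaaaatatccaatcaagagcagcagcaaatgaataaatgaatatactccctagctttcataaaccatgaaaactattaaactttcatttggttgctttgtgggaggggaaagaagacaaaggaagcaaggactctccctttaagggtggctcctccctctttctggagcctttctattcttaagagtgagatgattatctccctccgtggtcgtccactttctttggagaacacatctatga
Promoters were matched for 7 of the 9 markers; Aif1 and Msr1 were not matched. The PU box letters stood in 6 of the 7 windows (those of Cd68, Csf1r, Adgre1, Mrc1, Cd14 and Lyz2) and in 27.6% of all 33469 windows of the same length. The window of Cd163 did not hold them. Of 3 other motifs read on both strands, the AP-1 site TGANTCA was in 1 of 7 windows (Cd68) against 7.33% of all windows, and the RUNX site TGTGGT and the E-box CACGTG were in 0 of 7, against 17.3% and 6.42%. These are matches of letters only.

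Most of the markers were lower in rats given Enalapril than in Vehicle. By the test of 13482 genes, 2 of the 9 were DEGs, both lower (Cd68 and Cd14), where 4.04% of all genes were DEGs with a lower level. Without the fold threshold 7 of 9 were lower at an adjusted p under 0.05, against 26.6% of all genes. The median log2 fold change was -0.57 for the 9 markers and -0.15 for all tested genes. In whole tissue, fewer cells of a type and less RNA per cell cannot be told apart.

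Among the lysosomal markers, Cd68 ran from 20.4 to 34.0 FPKM (median 30.4) with Enalapril and from 27.8 to 66.3 FPKM (median 43.2) in Vehicle. All 9 rats with Enalapril were below the Vehicle median and 4 below every Vehicle rat, and the log2 fold change was -0.66 (SE 0.12, adjusted p = 0.000792). Lyz2 ran from 403.1 to 1001 FPKM (median 744.3) with Enalapril and from 571.5 to 1530 FPKM (median 1114) in Vehicle, with a log2 fold change of -0.57 (limma SE 0.17, adjusted p = 0.0169), short of the fold threshold. The groups overlapped widely for Lyz2, 2 of 9 rats with Enalapril lying below the Vehicle range. Rat Lyz2 has a near-copy next to it, Lyc2, which was listed at 0 to 0.756 FPKM over all animals. How reads shared between them were counted is not given in the sources used here, and Lyc2 was chosen after its values were seen.

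Among the receptors for growth factor and lipopolysaccharide, Csf1r ran from 28.9 to 40.8 FPKM (median 36.1) with Enalapril and from 40.2 to 68.1 FPKM (median 52.2) in Vehicle. This was the cleanest separation of the 9, with 8 of 9 rats below every Vehicle rat, and its adjusted p of 0.000163 was the smallest, although the log2 fold change of -0.58 (SE 0.08) did not reach the fold threshold. Cd14 ran from 7.42 to 12.3 FPKM (median 9.66) with Enalapril and from 10.8 to 20.7 FPKM (median 14.5) in Vehicle, and 7 of 9 rats were below the Vehicle range. Its log2 fold change was -0.67 (SE 0.11, adjusted p = 0.000342).

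Adgre1, whose protein defines tissue macrophages in mouse, ran from 4.26 to 6.69 FPKM (median 5.76) with Enalapril and from 6.01 to 11.6 FPKM (median 8.56) in Vehicle. Its fold change of 0.661 missed the threshold of 0.66 by the third decimal (log2 fold change -0.60, SE 0.12, adjusted p = 0.00105). RefSeq places another 2 genes over Adgre1, Hspa14-ps1 and LOC103690497, whose reads could not be told apart if they lay on the same strand. Aif1 ran from 40.8 to 55.2 FPKM (median 44.98) with Enalapril and from 52.4 to 96.3 FPKM (median 67.1) in Vehicle, and 7 of 9 rats were below the Vehicle range (log2 fold change -0.57, SE 0.09, adjusted p = 0.000280).

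The 3 scavenger receptors had the smallest log2 fold changes. Mrc1, which binds mannose-bearing glycoproteins, ran from 2.74 to 6.68 FPKM (median 3.49) with Enalapril and from 3.46 to 8.11 FPKM (median 5.05) in Vehicle, with a log2 fold change of -0.50 (limma SE 0.16, adjusted p = 0.0195). Msr1, which takes up modified lipoproteins, had medians of 1.04 and 1.22 FPKM and did not pass the test (log2 fold change -0.28, 95% interval -0.70 to 0.15, adjusted p = 0.307). Cd163 had medians of 0.583 FPKM with Enalapril and 0.646 FPKM in Vehicle, and its log2 fold change of -0.02 had a 95% interval of -0.54 to 0.50 (adjusted p = 0.955). The sign of the Cd163 value turned under several settings, among them median-of-ratios scaling (0.11).

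With the combination more of the markers passed the fold threshold. Of the 9, 5 were DEGs, all lower than in Vehicle (Cd14, Lyz2, Cd68, Aif1 and Mrc1), where 6.39% of all tested genes were, and 8 of 9 were lower at an adjusted p under 0.05 with no fold threshold, against 39.3% of all genes. The median log2 fold change was -0.62 for the markers and -0.18 for all genes. The Vehicle rats are the same in both comparisons.

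Cd14 fell furthest, to between 6.70 and 11.4 FPKM (median 8.37) with the combination, against 10.8 to 20.7 FPKM in Vehicle. Of 12 rats, 10 lay below the Vehicle range, and the log2 fold change was -0.79 (SE 0.11, adjusted p = 1.35e-05). Lyz2 ran from 480.6 to 931.5 FPKM (median 602.1) with the combination, 4 of 12 rats being below the Vehicle range (log2 fold change -0.72, SE 0.14, adjusted p = 0.000446). Aif1 separated best: it ran from 37.9 to 55.8 FPKM (median 43.99), and 11 of 12 rats with the combination were below every Vehicle rat (log2 fold change -0.62, SE 0.09, adjusted p = 1.98e-05).

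Cd68 ran from 19.7 to 39.2 FPKM (median 28.0) with the combination and had a log2 fold change of -0.66 (limma SE 0.13, adjusted p = 0.000486). Mrc1 ran from 2.38 to 5.05 FPKM (median 3.27), 7 of 12 rats lying below the Vehicle range (log2 fold change -0.62, SE 0.14, adjusted p = 0.00101). Mrc1 shares its locus in RefSeq with Mir511, a microRNA in its intron, and LOC134482611. Csf1r, Adgre1 and Msr1 passed the test but not the fold threshold. Their log2 fold changes were -0.57 (SE 0.09), -0.55 (SE 0.11) and -0.55 (SE 0.20), with limma adjusted p values of 5.80e-05, 0.000541 and 0.0266. For Msr1, which lay near the filter, the adjusted p ran from 0.00127 to 0.0579 with 1 animal left out at a time. Cd163 was the exception again, with a median of 0.767 FPKM with the combination against 0.646 FPKM in Vehicle and a log2 fold change of 0.14 (95% interval -0.29 to 0.56, adjusted p = 0.608).

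**Figure D2:**
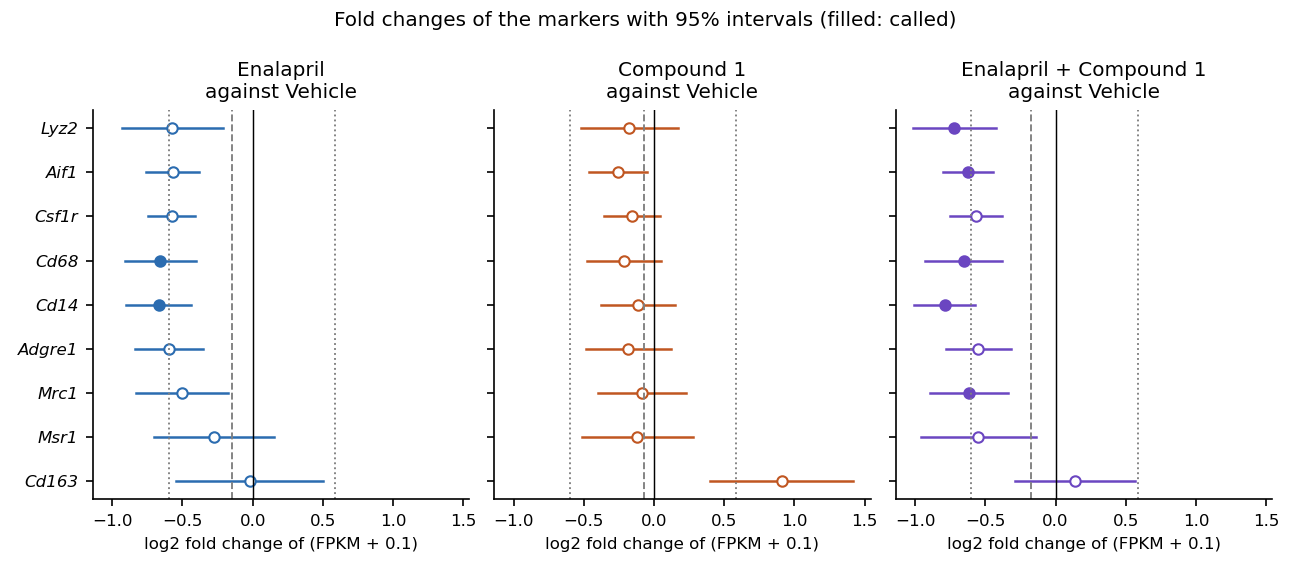
Log2 fold changes of FPKM + 0.1 (points) with 95% intervals (lines) of the 9 markers for Enalapril, Compound 1 and the combination against Vehicle; filled points are DEGs, the dashed line is the median of all 13482 genes and dotted lines are the fold thresholds. With Enalapril 2 and with the combination 5 markers are filled, none with Compound 1, and Cd163 lies at -0.02, 0.91 and 0.14.

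All genes together were shifted by -0.15 with Enalapril and -0.18 with the combination, and the fold changes of the markers are to be read relative to that shift. Mitochondrial transcripts, which take up room in FPKM, made up 32.8 ± 5.90% of FPKM in the Enalapril group (SD, n = 9), 30.2 ± 3.96% in the Compound 1 group (n = 12) and 32.1 ± 4.84% in the combination group (n = 12), against 27.5 ± 5.38% in Vehicle (n = 11). After scaling of the libraries by their median of ratios, the log2 fold changes of the 8 markers other than Cd163 were all still below 0, but 0 of 9 were DEGs with Enalapril (1.22% of all genes lower) and 1 of 9, Cd14, with the combination (2.31% lower). The median log2 fold changes were then -0.42 and -0.45, where those of all genes were 0.0011 and -0.0086. Csf1r kept an adjusted p of 0.000772 with Enalapril and 0.000931 with the combination after rescaling, and the values of Cd14 were 0.00117 and 3.43e-05.

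Markers of the inner medulla, the innermost region of the kidney, overlapped in level between all groups. The summed FPKM of 8 of them ran from 124.9 to 185.8 (median 153.0) in rats given Enalapril, from 158.6 to 255.6 (median 183.3) in those given Compound 1 and from 147.5 to 250.7 (median 158.1) in those given the combination, against 141.3 to 265.6 (median 179.3) in Vehicle, none of the 8 being at 0 in a whole group. With the mean log2 level of the 7 tested ones as a covariate, 0 of 9 markers were DEGs with Enalapril (0.653% of all genes lower) and 2 of 9 (Cd14 and Lyz2) with the combination (3.73% lower). The log2 fold change of Csf1r was then -0.44 with Enalapril (adjusted p = 0.0141) and -0.46 with the combination (adjusted p = 0.00257). Of these 7 genes, 1 was itself lower than in Vehicle with Enalapril and 2 with the combination, at a limma adjusted p under 0.05. Their median log2 fold changes were -0.23 and -0.13. How much of a treatment difference the covariate took up was not tested.

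The number of DEGs changed with single animals. With Enalapril, 2 markers became 1 without Vehicle animal 1003 or without Enalapril animal 2001, 4 without Enalapril animal 2007, 2011 or 2012, 6 without Vehicle animal 1008 and 7 without Enalapril animal 2103. With the combination, 5 became 2 without Vehicle animal 1003, and 4 to 7 without any other single animal. Cd14 was a DEG in all 20 fits with Enalapril and all 23 with the combination that left out 1 animal, and Cd68 in 18 and 22 of them. With sample weights there were 0 DEGs among the markers with Enalapril (2.80% of all genes lower) and 5 with the combination (6.15% lower), of which Msr1 was new while Aif1 was no longer one.

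**Figure D3:**
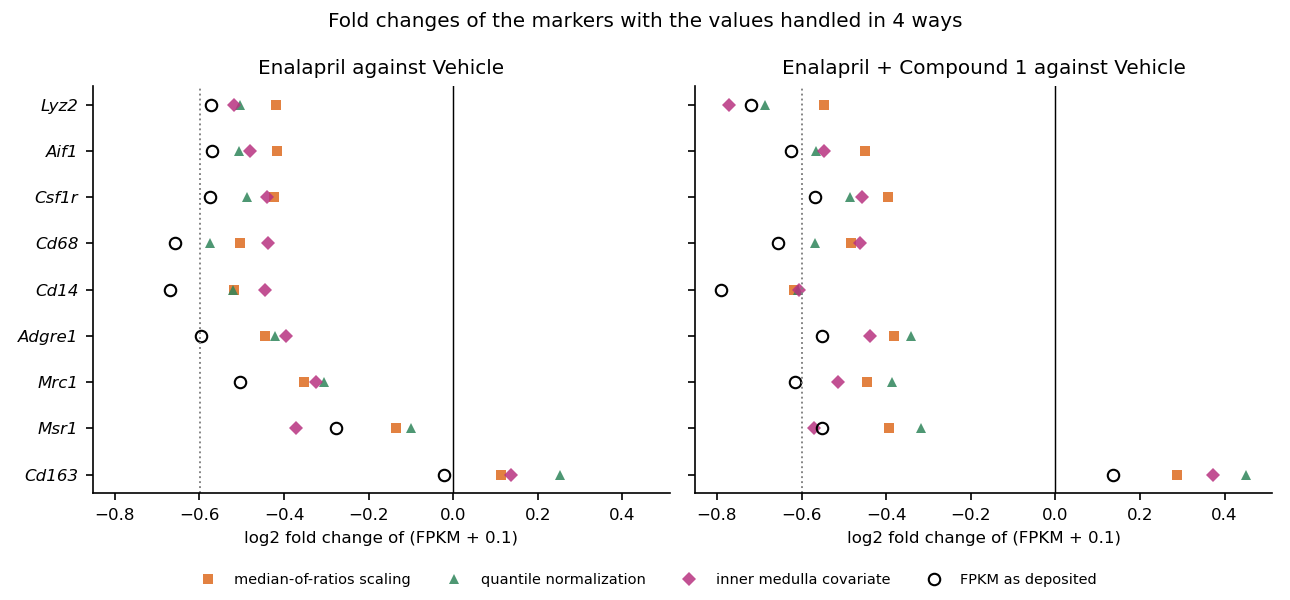
Log2 fold changes of FPKM + 0.1 of the 9 markers against Vehicle, for Enalapril and for the combination, with FPKM as deposited (circles), after median-of-ratios scaling (squares), after quantile normalization (triangles) and with the inner medulla covariate (diamonds); the dotted line is the lower fold threshold. The 8 markers other than Cd163 stay below 0 in all 4. With Enalapril only Cd68 and Cd14 lie below the dotted line as deposited, and no marker does in the other 3.

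With Compound 1 alone 0 of the 9 markers were DEGs by limma (2 of 9 had an unadjusted p under 0.05, Cd163 and Aif1, against 13.3% of all genes), where 0.200% of all genes were DEGs in either direction. The 8 markers other than Cd163 had log2 fold changes between -0.26 (Aif1, SE 0.10, adjusted p = 0.282) and -0.09 (Mrc1, 95% interval -0.40 to 0.22), and all genes were shifted by -0.07. Their levels overlapped with Vehicle throughout: Csf1r ran from 32.9 to 63.2 FPKM (median 47.7) with Compound 1, against 40.2 to 68.1 FPKM (median 52.2) in Vehicle. Cd68 ran from 27.7 to 53.4 FPKM (median 39.3) with Compound 1, against 27.8 to 66.3 FPKM (median 43.2) in Vehicle.

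Cd163 had a positive fold change. It ran from 0.632 to 2.65 FPKM (median 1.49) with Compound 1 and from 0.335 to 1.61 FPKM (median 0.646) in Vehicle; 11 of 12 rats were above the Vehicle median and 5 above every Vehicle rat. The log2 fold change was 0.91 (SE 0.25, 95% interval 0.40 to 1.42), with an adjusted p of 0.103. The study names Cd163 among the up-regulated genes of its most significant ones for this treatment, from a count model on raw counts. The direction of Cd163 in the same animals is thus no independent evidence. Its entry into the test used here rested on the rats in which it was high. The call depended on the setting. Cd163 was a DEG after median-of-ratios scaling (adjusted p = 0.0345, where 0.0742% of all genes were DEGs with a higher level), after quantile normalization (0.0301), without mitochondrial transcripts (0.0495), with the inner medulla covariate (0.0282), with sample weights (0.0130), with all 4 groups in 1 fit (0.0242) and without Vehicle animal 1003 (0.0495). It was not a DEG with other pseudocounts, with no filter or without 3 other sets of animals, where adjusted p ran from 0.0510 to 0.198.

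Set against the rats given Compound 1, most of the markers were lower with either Enalapril treatment. With the combination 2 of 9 were DEGs, both lower (Cd163 and Cd14), against 2.05% of all genes, and 8 of 9 were lower at an adjusted p under 0.05, against 17.4%. Cd14 fell to 6.70 to 11.4 FPKM with the combination, against 9.81 to 24.5 FPKM with Compound 1, with a log2 fold change of -0.67 (limma SE 0.12, adjusted p = 0.000310). It was not a DEG with median-of-ratios scaling (-0.57), quantile normalization (-0.57) or the inner medulla covariate (-0.44), where its fold change missed the threshold. Cd163 ran from 0.439 to 1.07 FPKM with the combination, all 12 rats lying below the Compound 1 median of 1.49 FPKM (log2 fold change -0.77, SE 0.21, adjusted p = 0.00794). Cd163 entered the test mainly through the Compound 1 rats, in which it was high, so its call and its place in the count of 2 carry that limit. Its call was lost with a pseudocount of 1, with quantile normalization, with the inner medulla covariate (adjusted p = 0.145) and without animals 3102 to 3105 and 2103 (0.0520). Because the last dose of Compound 1 was 1 mg/kg/day in the combination and 3 mg/kg/day when given alone, the addition of Enalapril and the dose cannot be told apart here.

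Enalapril against Compound 1 gave 1 DEG of 9, Cd163, lower, against 1.89% of all genes, and 6 of 9 lower at an adjusted p under 0.05, against 10.9%. Cd163 ran from 0.411 to 1.03 FPKM with Enalapril, 5 of 9 rats being below every rat with Compound 1, and its log2 fold change was -0.93 (SE 0.23, adjusted p = 0.00493). It entered the test mainly through those Compound 1 rats, so this single call is a description and not support. With the inner medulla covariate its adjusted p was 0.182, and with a pseudocount of 1 it missed the fold threshold. Without Enalapril animal 2103 the number of DEGs was 2, Cd14 being the other.

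The combination and Enalapril alone were not told apart by any marker. None of 9 was a DEG by limma and none had an unadjusted p under 0.05, where 0.00742% of all genes were DEGs. The log2 fold changes of the combination over Enalapril ran from -0.27 (Msr1, 95% interval -0.64 to 0.09) to 0.16 (Cd163, 95% interval -0.30 to 0.61), and those of Cd68 and Csf1r were 0.0016 and 0.0073, with 95% intervals of -0.27 to 0.27 and -0.19 to 0.21. The interaction of Enalapril and Compound 1, which asks whether the effect of one depends on the other, gave 0 DEGs among 9 markers (1 with an unadjusted p under 0.05; 0.00742% of all genes were DEGs). That 1 was Cd163, with an interaction of -0.75 on the log2 scale (SE 0.31, unadjusted p = 0.0201, adjusted p = 0.986). The dose of Compound 1 differs within this term.

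Cd163 was also read relative to the other macrophage genes of the same animal, which sets aside the scaling of the library. For each 100 FPKM of Csf1r there were 2.94 ± 0.958 FPKM of Cd163 with Compound 1 (SD, n = 12), 1.95 ± 0.825 with Enalapril (n = 9) and 2.11 ± 0.533 with the combination (n = 12), against 1.33 ± 0.603 in Vehicle (n = 11). The order of the group means was the same with each of the other 7 markers taken as the base in place of Csf1r. The log2 level of Cd163 minus the mean log2 level of the other 8 had a median of -3.89 with Compound 1, -4.73 with Enalapril and -4.28 with the combination, against -5.13 in Vehicle. All 3 treated groups had more Cd163 per unit of the other markers than Vehicle by this measure, which is a description with no test. The parts of the measure differed between them. With Enalapril and the combination, Cd163 itself had log2 fold changes over Vehicle of -0.02 and 0.14. The medians of the other 8 were -0.57 and -0.62, so there it was mainly the base that was lower. With Compound 1 the log2 fold change of Cd163 was 0.91 and the median of the other 8 was -0.17.

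**Figure D4:**
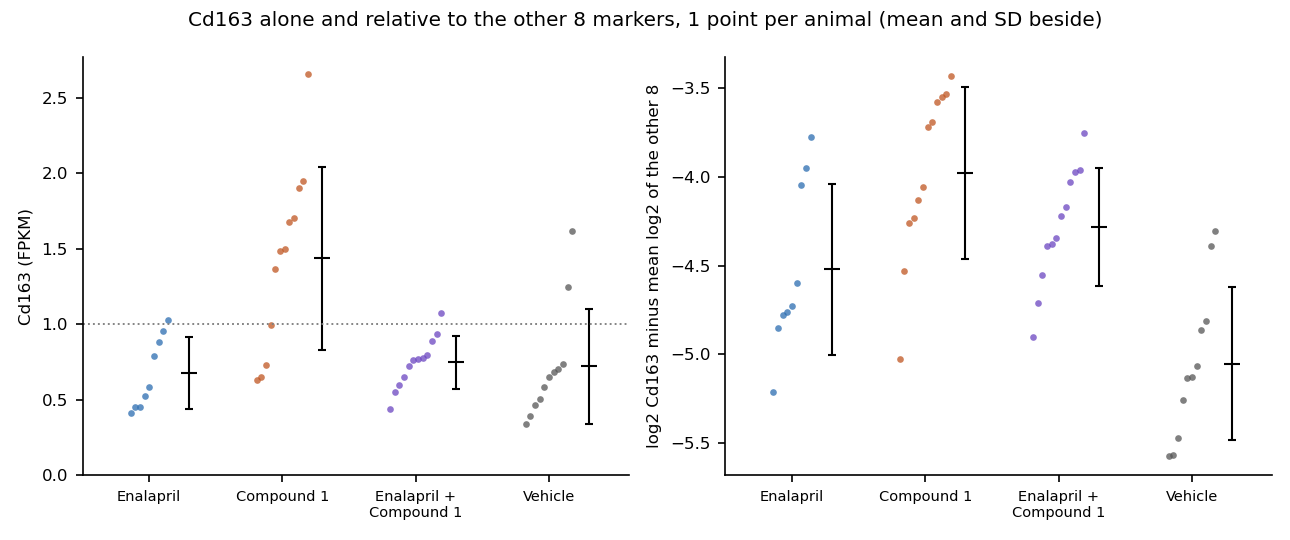
Left, Cd163 in FPKM; right, log2(FPKM + 0.1) of Cd163 minus the mean log2(FPKM + 0.1) of the other 8 markers; 1 point per animal (sorted by value within a group), with the group mean and SD beside. The dotted line is the filter of 1 FPKM, which 8 of 12 rats with Compound 1 exceeded; on the right the group medians are -4.73 with Enalapril, -3.89 with Compound 1, -4.28 with the combination and -5.13 in Vehicle.

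Ratios among the remaining markers are likewise given without a test. Cd68 stood at 0.799 ± 0.0891 of Csf1r in the Enalapril group (SD), 0.812 ± 0.0562 in the Compound 1 group and 0.796 ± 0.0913 in the combination group, against 0.845 ± 0.0849 in Vehicle. Adgre1 was 0.158 ± 0.0160, 0.160 ± 0.0258 and 0.164 ± 0.0264 of Csf1r in the same 3 groups, against 0.162 ± 0.0175 in Vehicle. Cd14 was the lowest relative to Csf1r with the combination, at 0.246 ± 0.0411, against 0.286 ± 0.0259 in Vehicle, and Mrc1 ran from 0.0971 ± 0.0177 with the combination to 0.106 ± 0.0240 with Enalapril, against 0.103 ± 0.0284 in Vehicle.

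The markers varied together from animal to animal. With group means removed, the 36 pairs of the 9 genes were all positively correlated over 44 animals, with Pearson's r between 0.16 and 0.91 (median 0.52) and Spearman's rho between 0.23 and 0.92 (median 0.56). By permutation within groups, adjusted over the 36 pairs, 29 pairs had an adjusted p under 0.05 by r and 32 by rho. These p-values come from FPKM as deposited, where the median-of-ratios factors of the libraries ran from 0.832 to 1.22. Such a factor is shared by all genes of a library. The share among other gene pairs was not computed, so both counts are a description. The tightest pair was Csf1r and Cd68 (r = 0.91, rho = 0.92, permutation p = 1e-05 for each, the smallest that 100000 resamples can give, adjusted p = 3.6e-05; r = 0.91 without the 2 animals farthest from the median). Among the other pairs with Csf1r, r was 0.81 with Cd14, 0.78 with Adgre1 and 0.71 with Aif1. After median-of-ratios scaling the median r was 0.36, with Csf1r and Cd68 at 0.90. The pairs with Msr1 then had a median r of 0.07 and those with Cd163 0.26.

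Msr1 and Cd163, the 2 least abundant markers, were the loosest. The 8 pairs with Msr1 had a median r of 0.23, of which that with Lyz2 was the highest (r = 0.64, rho = 0.65). The 8 pairs with Cd163 had a median r of 0.41, and Mrc1 was its closest partner (r = 0.61, rho = 0.57, permutation p = 4e-05, adjusted p = 0.000103; r = 0.59 without the 2 farthest animals, 0.51 after median-of-ratios scaling). Within groups, Cd163 and Mrc1 had r = 0.22 with Enalapril, 0.82 with Compound 1, 0.50 with the combination and 0.65 in Vehicle. Over all 36 pairs the within-group median r was 0.41 with Enalapril, 0.66 with Compound 1, 0.47 with the combination and 0.56 in Vehicle.

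**Figure D5:**
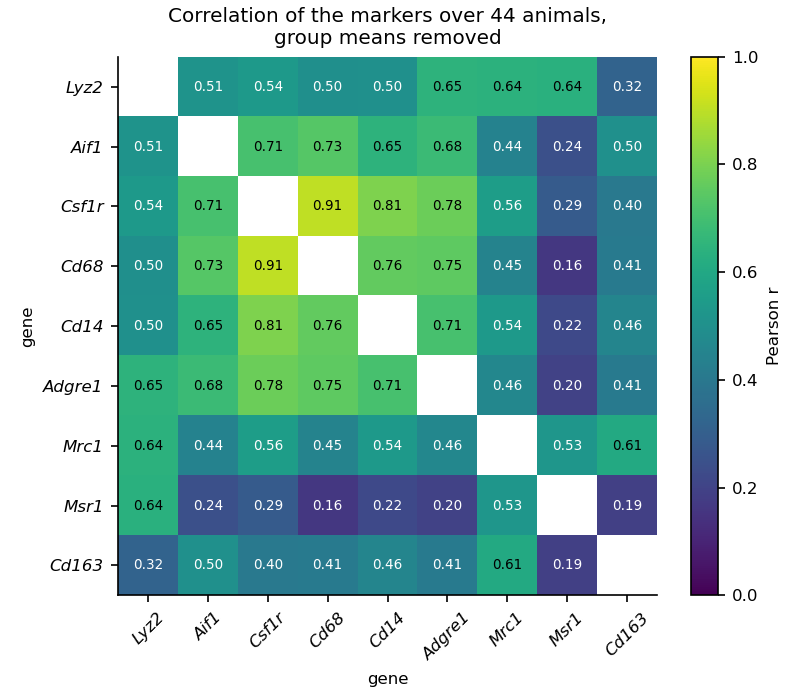
Pearson's r between the 9 markers over 44 animals, from log2(FPKM + 0.1) with group means removed; colour and number in each square both give r. Csf1r, Cd68, Cd14, Adgre1 and Aif1 form a block with r from 0.65 to 0.91, while squares of Msr1 and Cd163 are mostly lower.

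A few animals were high or low for most markers. Vehicle animal 1003 was the highest of its group for 8 of 9 markers and Vehicle animal 1008 the lowest for 6. Among rats with Compound 1, animal 3001 was the highest for 6 markers, with 24.5 FPKM of Cd14 and 13.4 FPKM of Adgre1, and animal 3011 the lowest for 5. With Enalapril, animal 2103 was the highest for 5.

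Several of the genes most like the mean profile of the 9 markers are known from macrophages. By Pearson's r over 44 animals with group means removed, the closest of the tested genes was Gpnmb, a lysosomal glycoprotein of activated macrophages (r = 0.94), followed by Plekho1 (0.92), Tspan8 (0.92), C1qa, a chain of complement C1q made by macrophages (0.91), Pltp, the phospholipid transfer protein (0.91), Spp1, osteopontin (0.91), Csrp1 (0.91), Anxa2 (0.91), the protease Ctsd (0.91) and Apol3 (0.91). After median-of-ratios scaling their r was between 0.85 and 0.92. Spp1, Tspan8, Anxa2 and Ctsd are also made by epithelial cells. The 5 genes most like Cd163 alone were other ones, at lower r: the zinc transporter Slc39a6 (0.74), Carmil1 (0.72), Cyp4b1 (0.71), Nucb2 (0.70) and Eef2k (0.69). After median-of-ratios scaling their r was between 0.47 (Nucb2) and 0.68 (Slc39a6). Their log2 fold changes with Compound 1 over Vehicle ran from -0.19 to -0.02, where that of Cd163 was 0.91. These genes were picked for their likeness among 13482, so r is a description.

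Wider lists of genes around these markers were written from general knowledge and hold none of the 9. Earlier results of these data were known when they were written, so their counts are a description. Of 49 tested genes of a general macrophage list, 15 were DEGs with Enalapril, all lower, against 4.04% of all genes. With the combination 26 were DEGs, all lower, against 6.39% of all genes. The medians of the log2 fold change were -0.51 and -0.61. After median-of-ratios scaling 1 and 7 were DEGs, where 1.22% and 2.31% of all genes were lower DEGs. The 1 of 49 with Enalapril is near that share. With the inner medulla covariate 0 and 11 were lower DEGs, against 0.653% and 3.73% of all genes. Itgam, the integrin CD11b, averaged 3.65 ± 0.545 FPKM with Enalapril and 3.40 ± 0.771 FPKM with the combination, against 5.96 ± 1.11 FPKM in Vehicle (log2 fold changes -0.69, SE 0.11, and -0.80, SE 0.11). Lilrb4, an inhibitory receptor, averaged 4.82 ± 0.768 FPKM with the combination against 9.41 ± 2.19 FPKM in Vehicle, and Gpnmb averaged 35.5 ± 8.18 FPKM against 68.5 ± 19.3 FPKM (log2 fold changes -0.93 each, SE 0.11 and 0.14). Laptm5, a lysosomal membrane protein of blood cells, averaged 41.6 ± 5.73 FPKM with Enalapril against 65.1 ± 11.5 FPKM in Vehicle (log2 fold change -0.64, SE 0.10).

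For the lists that follow, lower DEGs were 4.04% of all genes with Enalapril and 6.39% with the combination, or 1.22% and 2.31% after median-of-ratios scaling. After that scaling, higher DEGs with the combination were 337 of all 13482 genes. A list of colony-stimulating factors, their receptors and myeloid regulators, 13 tested and without Csf1r, held 2 DEGs with Enalapril and 5 with the combination. All were lower, and Csf3r and Csf2ra, of the receptors for CSF3 and CSF2, were among the 5. In each comparison 1 gene of this list was higher at an adjusted p under 0.05. After median-of-ratios scaling 0 were DEGs with Enalapril, and with the combination 2 were lower and 1 higher (Csf2rb, the shared beta chain of several cytokine receptors, log2 fold change 0.66, named after its value was seen). Spi1, which encodes PU.1, averaged 8.13 ± 1.83 FPKM with Enalapril and 8.50 ± 1.91 FPKM with the combination, against 13.02 ± 1.83 FPKM in Vehicle (log2 fold changes -0.70, SE 0.12, and -0.63, SE 0.10). Dok2, an adaptor downstream of growth factor receptors in myeloid cells, averaged 2.65 ± 0.620 and 2.38 ± 0.525 FPKM, against 4.28 ± 1.22 FPKM in Vehicle. Of 17 genes of resident or alternatively activated macrophages, 3 were DEGs with Enalapril and 4 with the combination, all lower: Il1rn, the interleukin-1 receptor antagonist, Clec10a, a galactose-binding lectin, and Stab1, a scavenger receptor, in both, and Siglec1, a sialic acid receptor, with the combination. With the combination 1 gene was higher at an adjusted p under 0.05. After median-of-ratios scaling 1 was a lower DEG with Enalapril, and with the combination 2 were lower and 1 higher (Selenop, a selenium carrier, log2 fold change 0.67, likewise named afterwards). Of 12 other scavenger receptors 2 were DEGs, both lower, in each comparison, Ssc5d and Stab1, Ssc5d averaging 1.17 ± 0.121 FPKM with Enalapril and 1.05 ± 0.397 FPKM with the combination, against 2.05 ± 0.458 FPKM in Vehicle. The rescaled counts of this list were 0 with Enalapril and 1 with the combination.

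Around Cd14, 18 genes of lipopolysaccharide sensing held 3 lower DEGs with Enalapril and 4 with the combination, or 0 and 2 after median-of-ratios scaling. The shares of lower DEGs among all genes were 4.04% and 6.39%, or 1.22% and 2.31% after that scaling. Tlr2, a receptor for bacterial lipoproteins, averaged 3.39 ± 0.718 FPKM with Enalapril and 3.27 ± 0.656 FPKM with the combination, against 5.43 ± 0.989 FPKM in Vehicle. Tlr4, the partner of Cd14, averaged 1.31 ± 0.299 FPKM with the combination against 2.07 ± 0.537 FPKM in Vehicle (log2 fold change -0.62, SE 0.14, adjusted p = 0.00157). Of 26 genes of the lysosome and phagosome, the compartment of Cd68 and Lyz2, 3 were lower DEGs with Enalapril (the cathepsins Ctsd, Ctsz and Ctsk). With the combination 2 were (Ctsz and Ctsk), which is near the share of 6.39% among all genes. The medians of -0.16 and -0.14 were close to those of all genes. After median-of-ratios scaling 0 lysosomal genes were DEGs in either.

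Monocyte-attracting chemokines and adhesion molecules, 18 tested, held 5 lower DEGs with Enalapril and 7 with the combination, against 4.04% and 6.39% of all genes. Ccl2, the main attractant of CCR2-bearing monocytes, averaged 11.4 ± 1.51 FPKM with Enalapril and 9.85 ± 2.33 FPKM with the combination, against 18.4 ± 5.18 FPKM in Vehicle (log2 fold changes -0.64, SE 0.14, and -0.87, SE 0.15). Ccl7 averaged 2.59 ± 0.868 and 2.26 ± 0.715 FPKM in the same treated groups, against 5.09 ± 1.77 FPKM in Vehicle, and Spp1 averaged 2251 ± 384.7 and 2219 ± 452.0 FPKM, against 4246 ± 976.0 FPKM. After median-of-ratios scaling 2 and 3 of the 18 were lower DEGs, against 1.22% and 2.31% of all genes.

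Of 17 genes that handle hemoglobin, haem and iron, the cargo of Cd163, 0 were DEGs with Enalapril (limma; 4 lower and 1 higher at an adjusted p under 0.05) and 2 with the combination, both lower (5 lower and 4 higher at an adjusted p under 0.05). Lower DEGs made up 4.04% of all genes with Enalapril and 6.39% with the combination. The medians of -0.06 and -0.04 lay above those of all genes. The 2 DEGs were Cp, ceruloplasmin, at 63.3 ± 10.5 FPKM against 104.2 ± 22.2 FPKM in Vehicle, and Hmox1, haem oxygenase 1, at 9.85 ± 1.87 FPKM against 15.8 ± 4.44 FPKM. After median-of-ratios scaling neither was a DEG, and 2 genes of the list were higher DEGs instead, where 337 of all 13482 genes were. They were Tfrc, the transferrin receptor, and Blvra, a biliverdin reductase, both named after their values were seen. With Compound 1, 0 of the 163 tested genes of these 8 lists were DEGs by limma, with an unadjusted p under 0.05 for 27 lower and 5 higher genes (13.3% of all tested genes in either direction) and a median log2 fold change of -0.12, against -0.07 for all genes. The lists overlap: 5 genes of the general list and 5 of the scavenger receptor list also stand on another one.

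Markers of other cells moved in the same comparisons. Among all tested genes, 4.04% were lower DEGs with Enalapril and 6.39% with the combination, or 1.22% and 2.31% after median-of-ratios scaling. With the inner medulla covariate the shares were 0.653% and 3.73%. On such short lists, a count of 0 or 1 says little beside these shares. T cell markers were lower DEGs for 7 of 9 with Enalapril and 6 of 9 with the combination, the summed FPKM running from 24.7 to 36.6 and from 22.1 to 45.99, against 33.1 to 62.8 in Vehicle, and Cd3e averaged 6.08 ± 1.17 and 6.23 ± 1.68 FPKM, against 9.71 ± 2.02 FPKM in Vehicle. After median-of-ratios scaling 1 and 2 of the 9 were lower DEGs, and with the inner medulla covariate 0 and 4. Natural killer cell markers were lower DEGs for 3 of 4 in each (Klrk1, Prf1 and Nkg7), B cell markers for 1 and 3 of 5, dendritic cell markers for 1 and 2 of 7 and neutrophil markers for 0 and 1 of 3 (Csf3r). The rescaled counts were 0 and 1 for natural killer cells, 1 and 1 for B cells, 0 and 0 for dendritic cells and 0 and 1 for neutrophils. Neutrophils also express Lyz2 and Cd14. Of 12 neutrophil genes, 9 stayed under 1 FPKM in all rats with Enalapril and 9 in all with the combination, against 7 in Vehicle, and their summed FPKM ran from 3.16 to 5.51 with Enalapril and from 3.06 to 6.75 with the combination, against 4.20 to 12.0 in Vehicle. Fibroblast markers were lower DEGs for 5 of 9 and 4 of 9 (4 and 3 after rescaling), their sum running from 224.8 to 410.9 FPKM with Enalapril and from 278.5 to 404.3 FPKM with the combination, against 356.3 to 587.8 FPKM in Vehicle. Col1a1, a collagen I chain, averaged 32.6 ± 6.28 and 34.2 ± 8.47 FPKM, against 56.0 ± 12.8 FPKM in Vehicle.

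Of 3 tested mast cell markers, 2 were lower DEGs in each of the 3 comparisons with Vehicle. All genes had lower DEGs at 4.04% with Enalapril and 6.39% with the combination. With Compound 1 0.200% of them were DEGs in either direction. Mcpt2, a mast cell protease, averaged 6.77 ± 3.72 FPKM with Enalapril, 5.45 ± 2.23 FPKM with Compound 1 and 3.06 ± 0.994 FPKM with the combination, against 15.6 ± 3.88 FPKM in Vehicle. The other was Cpa3, carboxypeptidase A3. With Enalapril and with the combination 1 of 10 proximal tubule markers was a higher DEG in each (Pck1, at 1898 ± 260.3 FPKM with Enalapril and 1852 ± 251.2 FPKM with the combination, against 1281 ± 367.8 FPKM in Vehicle), and 7 of 10 were higher in each at an adjusted p under 0.05. Of all 13482 genes, 66 were higher DEGs with Enalapril and 134 with the combination, and 481 and 860 were higher at an adjusted p under 0.05. After median-of-ratios scaling 3 of the 10 proximal tubule markers were higher DEGs with Enalapril and 2 with the combination. Of all genes 205 and 337 were. With Compound 1 no proximal tubule marker was a DEG by limma, and their median log2 fold change was -0.06. No endothelial, podocyte, thick limb, collecting duct, inner medulla or blood marker was a DEG with Enalapril or with the combination. At an adjusted p under 0.05 some did differ. With Enalapril 4 of 8 endothelial markers were lower and 1 higher, and 2 of 5 podocyte markers were higher. With the combination 1 endothelial, 2 of 7 thick limb and 1 of 4 blood markers were higher. Of 9 collecting duct markers 1 was lower in each. Of 7 inner medulla markers 1 was lower with Enalapril and 2 with the combination. All genes were lower at this level for 26.6% and 39.3%. The part of these other cells in the values of the 9 macrophage markers was not tested.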

How the data were processed

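The study sequenced mRNA of a frozen piece of right kidney from 44 rats (TruSeq Stranded mRNA libraries, NovaSeq). The authors deposited FPKM per gene on build rn6; which aligner and counter made it is not given in the sources used here. Without read totals a count model could not be run, so limma 3.58.1 in R 4.3.3 (trended variance) was applied to log2(FPKM + 0.1), a scale that understates changes of low genes. The test took genes that exceeded 1 FPKM in 9 or more animals, with Benjamini-Hochberg adjustment over all of them. Comparisons with Vehicle used the 2 groups concerned, and other pairs and the interaction a fit of all 4 groups. Groups came from the sample labels, 1 library per animal, and p-values measure the spread between animals. Relative depth was read from the steps of low FPKM values. Of 32883 entries, 295 symbols had several, of which the highest stood for the gene. The table also had 2 empty columns. The sum of mitochondrial shares used 13 genes.

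The 9 markers, the gene lists and the alternatives were chosen with earlier results of these data known. From each pathway list up to 4 DEGs with the smallest adjusted p in a comparison with Vehicle could be named, with the DEGs of other marker lists, 10 genes most like the mean marker profile and 5 most like Cd163. Correlations used 100000 permutations within groups. The scripts were tested on simulated data. Alternatives covered pseudocounts of 1 and 0.01, filters, scaling, sample weights, a covariate, sets of animals and each animal in turn. List genes without an entry were not analysed here.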

Additional observations from a re-analysis of the deposited data

Results flagged for a closer look

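In the group of 9 rats with Enalapril, the highest Mrc1 value stood apart from the others. Animal 2103 had 6.68 FPKM and the next highest rat 4.16 FPKM, a gap of 0.639 of the range of the group, where the 95% critical value of Dixon's test for 9 values is 0.493. The same animal had the highest value of its group for 5 of the 9 markers. Without 1 animal at a time the log2 fold change of Mrc1 with Enalapril over Vehicle ran from -0.61 to -0.44, and without animal 2103 Mrc1 was a DEG. The 9 markers were each examined in this way in this group, and chance marks about 1 in 20 such groups. The other 3 groups hold more than 10 animals and were not tested in this way.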

How the results depend on the processing

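Without whole read counts, depth limits the least abundant markers most: a filter of FPKM above 5 left 7 of 9, dropping Cd163 and Msr1. With Enalapril over Vehicle, 2 markers were DEGs, and 0 were with median-of-ratios scaling, quantile normalization, mitochondrial transcripts removed, sample weights or the inner medulla covariate. There were 7 with no fold threshold, 4 without 6 animals listed last (2005, 2011, 2012, 3103, 3011 and 4005), 7 without animals 2103 and 3102 to 3105, 1 without Vehicle animals 1003 and 1004, and 1 to 7 with each animal left out in turn. With Compound 1 over Vehicle, 0 were DEGs, and 1 (Cd163) was with median-of-ratios scaling, quantile normalization, mitochondrial transcripts removed, sample weights, the covariate or all 4 groups in the fit, and 0 to 1 with each animal left out. With the combination over Vehicle, 5 were DEGs, 1 with median-of-ratios scaling, 2 with quantile normalization, mitochondrial transcripts removed or the covariate, 8 with no fold threshold, and 2 to 7 with each animal left out. With the combination over Compound 1, 2 were DEGs, 1 with a pseudocount of 1, the filter of 5 or median-of-ratios scaling, 0 with quantile normalization or the covariate, 8 with no fold threshold, 4 with sample weights or without the 6 animals, and 2 to 3 with each animal left out. With Enalapril over Compound 1, 1 was a DEG, 0 with a pseudocount of 1, the filter of 5 or the covariate, 6 with no fold threshold, 2 without animals 2103 and 3102 to 3105, and 1 to 2 with each animal left out. The combination over Enalapril and the interaction gave 0 in every setting run. Cd163 with Enalapril over Vehicle, -0.02 on the log2 scale, changed sign to 0.11 with median-of-ratios scaling, 0.25 with quantile normalization, 0.080 with mitochondrial transcripts removed, 0.14 with the covariate and 0.12 without Vehicle animals 1003 and 1004, and ran from -0.10 to 0.10 with each animal left out. Apart from the loss of the fold threshold and of genes by the filter, the cause of these changes was not tested. The setting without animals 2103 and 3102 to 3105 was not run for the combination over Vehicle, which holds none of them. No paired analysis was possible because the labels give each animal its own number.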
